A study of Homo sapiens with 9 samples.

Results

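The G1 cyclins and the inhibitors of their kinases were followed as 10 named genes, the D-type cyclin genes CCND1, CCND2 and CCND3, the E-type cyclin genes CCNE1 and CCNE2, the CIP/KIP inhibitor genes CDKN1A and CDKN1B and the INK4 inhibitor genes CDKN2A, CDKN2B and CDKN2C. They were chosen by name and found by Ensembl identifier, and they were 10 of the 60664 genes counted. The study sequenced polyadenylated RNA of Huh-7, a human hepatocellular carcinoma cell line, to learn how the loss of a vault RNA changes its transcriptome. Vault RNAs are short noncoding RNAs made by RNA polymerase III. The 3 lines were the unedited cells (WT), cells in which the VTRNA1-1 gene had been knocked out (1-1 KO) and cells in which the VTRNA1-2 gene had been knocked out (1-2 KO), with 3 libraries each and no drug treatment. All were grown in the same serum-containing medium to 80% confluency. WT and 1-1 KO cells came from another laboratory, and 1-2 KO was a clone grown from a single edited cell of the WT line. Each knockout was therefore represented by 1 line, and an effect of the lost vault RNA and a difference between clones cannot be told apart.

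Cyclin D binds CDK4 or CDK6, and the complex phosphorylates the retinoblastoma protein and frees E2F transcription factors. Cyclin E then activates CDK2 and carries the cell into S phase. INK4 proteins bind CDK4 and CDK6 and keep cyclin D off, whereas the CIP/KIP proteins p21 (CDKN1A) and p27 (CDKN1B) bind whole cyclin and kinase complexes and block CDK2. In hepatocellular carcinoma the G1 checkpoint is commonly altered. Much of the control of these proteins, and of p27 and cyclin D1 in particular, acts on their stability and is not seen in RNA.

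Total counts per library lay between 32384469 and 41782387. VTRNA1-1 and VTRNA1-2 themselves held between 0 and 1 counts in every library, since vault RNAs carry no poly(A) tail, so the libraries could not be checked against their labels in this way. All 9 hepatocyte markers were detected in each line, and their summed level was 15010 to 15956 CPM (counts scaled to library size) in WT, 31192 to 32134 in 1-1 KO and 21201 to 23228 in 1-2 KO. ALB averaged 2532, 9427 and 4739 CPM in these lines and AFP 1759, 8167 and 7419. At an adjusted p under 0.05, 8 of the 9 were higher than WT in 1-1 KO and 0 lower. In 1-2 KO 4 were higher and 3 lower, TTR at -0.64, FGB at -0.24 and TF at -0.22 on the log2 scale. The 5 fibroblast markers summed to 185 to 196 CPM in WT, 281 to 295 in 1-1 KO and 119 to 127 in 1-2 KO. LUM averaged 157, 206 and 62.1 CPM in these lines, the largest part of the sum in each. LUM was at -1.34 in 1-2 KO on the log2 scale, COL1A2 at 1.73 in 1-1 KO and 0.98 in 1-2 KO and PDGFRB at 1.61 and 1.87, while COL1A1 was at 10.5 to 13.3 CPM in the line means. Of the 5 endothelial markers KDR had 0 counts in every library, and the sum, nearly all PECAM1, was 7.42 to 8.04 CPM in WT, 6.43 to 7.22 in 1-1 KO and 0.831 to 1.1 in 1-2 KO. The 5 leukocyte markers summed to at most 3.71 CPM. The part of these shifts in the results was not tested. The library 1-2 KO replicate 1 stood apart, with 72 of 13351 expressed genes more than 2-fold above both other libraries of its line and 3 more than 2-fold below, and CDKN2A, for which it decides the value in 1-2 KO, is given with and without it.

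Levels are given as CPM after TMM scaling, and differences as log2 fold changes from edgeR's quasi-likelihood test with its standard error (SE) and an adjusted p (Benjamini-Hochberg over 17207 tested genes). A difference with an adjusted p under 0.05 is called. All but CCND2 of the 10 genes were tested. In 1-1 KO against WT 6 of 9 were called, 4 higher and 2 lower, where 63.4% of all tested genes were called, 32.5% higher and 30.9% lower. In 1-2 KO against WT 6 of 9 were called, 3 higher and 3 lower, beside 54.4% of all tested genes, 28.2% higher and 26.2% lower. In 1-2 KO against 1-1 KO 6 of 9 were called, 1 higher and 5 lower, beside 65.3% of all tested genes, 33.1% higher and 32.2% lower. The count of called genes was thus near what the transcriptome as a whole gave, and the direction and size for each gene are what follows. Calls with a change of more than 2-fold (1 on the log2 scale) were 0 of 9, 2 of 9 and 2 of 9 in these comparisons, beside 13.4%, 11.7% and 14.1% of all tested genes. The libraries of the lines did not overlap for 5, 5 and 6 of the 9 genes, beside 68.9%, 58.4% and 69.8% of all tested genes. Calls above 0.5 on the log2 scale were 3, 3 and 4 of 9, beside 31.3%, 24.1% and 34.2% of all tested genes. The first 2 comparisons share the WT libraries and are therefore not independent of each other. The third uses the same knockout libraries in the same fit and is not independent of them either.

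**Figure D1:**
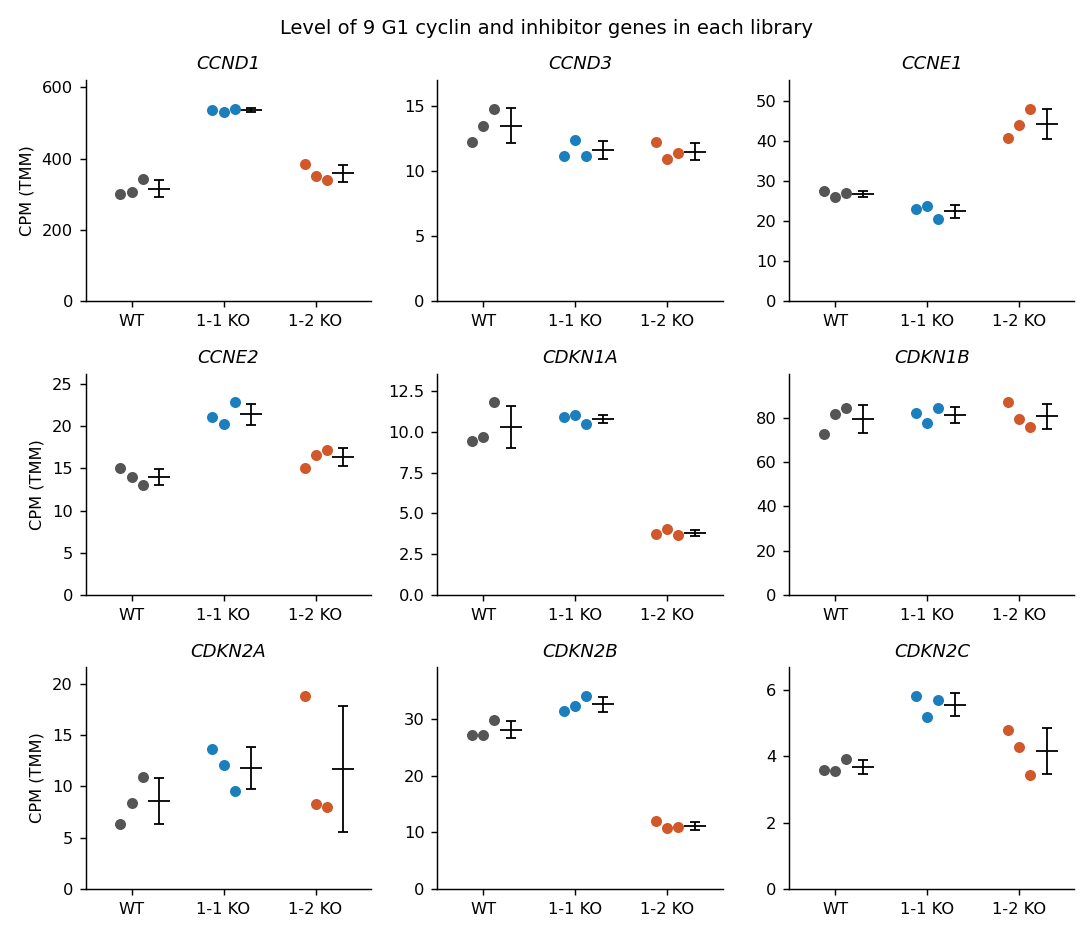
Level of the 9 tested genes in each library, in CPM after TMM scaling on a linear axis from 0. Points are libraries, and the bar beside them gives the mean ± SD of 3 libraries. CDKN1A and CDKN2B sit low in all 1-2 KO libraries (3.67 to 4.04 and 10.7 to 12 CPM), CCND1 is highest in 1-1 KO, CCNE1 is highest in 1-2 KO, and CDKN2A spreads widely within each line.

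Among the D-type cyclins, CCND1 carried nearly all of the RNA. CCND1 encodes cyclin D1, the G1 cyclin that growth factor signals induce, and lies on chromosome 11 from 69641156 to 69654474 on the plus strand of GRCh38. Its level was 300, 305 and 342 CPM in the WT libraries, 537, 530 and 540 CPM in 1-1 KO and 386, 352 and 339 CPM in 1-2 KO. The 1-1 KO libraries lay above all others, while the lowest 1-2 KO library lay just under the highest WT library. CCND1 was 1.7-fold higher in 1-1 KO than in WT (log2 fold change 0.76, SE 0.05, adjusted p = 2.13e-08). The rise in 1-2 KO was 1.14-fold over WT (0.19, SE 0.05, adjusted p = 0.00909), and the knockouts differed from each other by -0.58 (SE 0.05, adjusted p = 3.03e-07). In bulk RNA a change in how many cells are in a phase of the cycle and a change in RNA per cell cannot be told apart, for CCND1 and for the genes below. LTO1 on the opposite strand shares 8.46% of the 50-base words of CCND1.

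CCND3 encodes cyclin D3 and lies on chromosome 6 from 41934934 to 42050357 on the minus strand. Its level was 12.2, 13.5 and 14.8 CPM in WT, 11.2, 12.4 and 11.2 CPM in 1-1 KO and 12.2, 10.9 and 11.4 CPM in 1-2 KO. The knockout libraries sat at the lower end of the WT range or beneath it, and 1-1 KO overlapped WT. CCND3 was called lower than WT in 1-1 KO (-0.22, SE 0.08, adjusted p = 0.0277) and in 1-2 KO (-0.23, SE 0.08, adjusted p = 0.0281). Both calls were lost when any of 4 of the 6 libraries compared was left out, where the adjusted p reached 0.14 for 1-1 KO and 0.0999 for 1-2 KO, and the difference between the knockouts was -0.01 (95% interval -0.18 to 0.17).

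CCND2, the gene of cyclin D2 on chromosome 12 from 4269771 to 4305353 on the plus strand, had 0 counts in each WT and 1-1 KO library and 1, 2 and 0 counts in 1-2 KO. All lines were thus at or under the floor of 3 counts per library, and no fold change or test is given. Huh-7 cells of all 3 lines had CCND1 and CCND3 RNA and no CCND2 RNA that was detectable at this depth.

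The E-type cyclins moved in opposite directions in 1-1 KO. CCNE1 encodes cyclin E1 and lies on chromosome 19 from 29811991 to 29824312 on the plus strand. Its level was 27.5, 26 and 26.9 CPM in WT, 23, 23.7 and 20.6 CPM in 1-1 KO and 40.6, 44 and 48 CPM in 1-2 KO. The 3 lines did not overlap. CCNE1 was 1.65-fold higher in 1-2 KO than in WT (0.72, SE 0.07, adjusted p = 4.70e-07) and 1.19-fold lower in 1-1 KO (-0.26, SE 0.07, adjusted p = 0.00453). The knockouts differed by 0.98 (SE 0.07, adjusted p = 1.17e-08), a 1.97-fold higher level in 1-2 KO, and among the 9 genes CCNE1 was the single one called higher in that comparison.

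CCNE2 encodes cyclin E2, which also activates CDK2, and lies on chromosome 8 from 94879770 to 94896678 on the minus strand. Its level was 15, 14 and 13 CPM in WT, 21.1, 20.3 and 22.8 CPM in 1-1 KO and 15.1, 16.6 and 17.2 CPM in 1-2 KO. The 1-1 KO libraries were highest, and the lowest 1-2 KO library was close to the highest WT library. CCNE2 was 1.53-fold higher in 1-1 KO than in WT (0.61, SE 0.07, adjusted p = 4.25e-06). The difference of 1-2 KO from WT was 0.22 (SE 0.07, adjusted p = 0.0212) and was no longer called when any of 4 of 6 libraries was left out, with an adjusted p of up to 0.108. The gene was lower in 1-2 KO than in 1-1 KO (-0.39, SE 0.07, adjusted p = 2.09e-04). The opposite-strand gene INTS8 shares 35.2% of the distinct 50-base words of the CCNE2 transcripts, and whether the counting used the strand is not given in the sources used here. INTS8 was 0.07 above WT in 1-1 KO (adjusted p = 0.272) and 0.15 on the log2 scale below WT in 1-2 KO (-0.15, adjusted p = 0.0262).

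The CIP/KIP inhibitors split in 1-2 KO, where CDKN1A fell and CDKN1B did not pass the test. CDKN1A encodes p21, which blocks cyclin E and CDK2 after DNA damage and in arrested cells, and lies on chromosome 6 from 36676460 to 36687337 on the plus strand. Its level was 9.42, 9.71 and 11.8 CPM in WT, 10.9, 11 and 10.5 CPM in 1-1 KO and 3.73, 4.04 and 3.67 CPM in 1-2 KO. Every 1-2 KO library was far below the other 6 libraries, and 1-1 KO lay within the WT range. CDKN1A was 2.69-fold lower in 1-2 KO than in WT (-1.43, SE 0.10, adjusted p = 1.76e-08) and 2.83-fold lower than in 1-1 KO (-1.50, SE 0.09, adjusted p = 5.34e-09). In 1-1 KO the difference from WT was 0.07 (95% interval -0.11 to 0.26, adjusted p = 0.474).

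CDKN1B encodes p27, the inhibitor that accumulates in quiescent cells, and lies on chromosome 12 from 12685498 to 12722369 on the plus strand. Its level was 72.5, 81.4 and 84.5 CPM in WT, 82, 77.4 and 84.3 CPM in 1-1 KO and 86.8, 79.4 and 75.6 CPM in 1-2 KO. The 3 lines overlapped throughout. The difference from WT was 0.03 in 1-1 KO (95% interval -0.10 to 0.16, adjusted p = 0.649) and 0.02 in 1-2 KO (-0.11 to 0.15, adjusted p = 0.778), intervals that leave room for changes of up to about 0.16 on the log2 scale.

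The INK4 genes differed from each other even where they are neighbours on the chromosome. CDKN2B encodes p15, the INK4 protein that TGF-beta induces, and lies on chromosome 9 from 22002903 to 22009305 on the minus strand. Its level was 27.3, 27.3 and 29.9 CPM in WT, 31.5, 32.4 and 34.1 CPM in 1-1 KO and 12, 10.7 and 10.9 CPM in 1-2 KO. The 3 lines did not overlap, and 1-2 KO stood well below both others. CDKN2B was 2.51-fold lower in 1-2 KO than in WT (-1.33, SE 0.06, adjusted p = 5.15e-10) and 2.91-fold lower than in 1-1 KO (-1.54, SE 0.06, adjusted p = 5.51e-11). The 1-1 KO level was 1.16-fold above that of WT (0.21, SE 0.06, adjusted p = 0.00559).

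CDKN2A lies 7602 bases from CDKN2B on the same strand, from 21967752 to 21995301, and encodes p16INK4a and, from another first exon, p14ARF. The deposited count sums both kinds of transcript. Its level was 6.38, 8.4 and 10.9 CPM in WT, 13.7, 12.1 and 9.58 CPM in 1-1 KO and 18.8, 8.24 and 8.01 CPM in 1-2 KO. The lines overlapped, and 1 library of 1-2 KO stood far above the other two. CDKN2A passed the test in none of the 3 comparisons, with 0.47 (SE 0.28, adjusted p = 0.16) in 1-1 KO against WT and 0.46 (SE 0.28, adjusted p = 0.183) in 1-2 KO against WT. The value in 1-2 KO rests on replicate 1, the library that stood apart, and without it the difference from WT was -0.06 (adjusted p = 0.798) and that from 1-1 KO was -0.54 (adjusted p = 0.0123).

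No other gene of the 9 varied as much between libraries of the same line. The highest CDKN2A library was 1.71-fold above the lowest in WT, 1.43-fold in 1-1 KO and 2.35-fold in 1-2 KO. Among 3018 genes within 2-fold of its level, the median was 1.13, 1.09 and 1.12, and 1.56%, 0.63% and 0.63% of them spread as widely. CDKN2B shares 31 distinct 50-base words with CDKN2A (0.755% of those of CDKN2A), and its own libraries spread by 1.09-, 1.08- and 1.13-fold.

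CDKN2C encodes p18, an INK4 protein of a separate locus on chromosome 1 from 50960745 to 50974634 on the plus strand. Its level was low, with 3.59, 3.55 and 3.93 CPM in WT, 5.81, 5.18 and 5.69 CPM in 1-1 KO and 4.8, 4.29 and 3.42 CPM in 1-2 KO. The 1-1 KO libraries lay above all others, and 1-2 KO overlapped WT. CDKN2C was 1.51-fold higher in 1-1 KO than in WT (0.59, SE 0.12, adjusted p = 6.23e-04). The difference of 1-2 KO from WT was 0.18 (95% interval -0.09 to 0.45, adjusted p = 0.237), which became 0.31 (adjusted p = 0.0367) without 1-2 KO replicate 3, and 1-2 KO was lower than 1-1 KO (-0.41, SE 0.12, adjusted p = 0.00654). An unnamed annotated gene on the opposite strand shares 19.2% of its 50-base words.

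**Figure D2:**
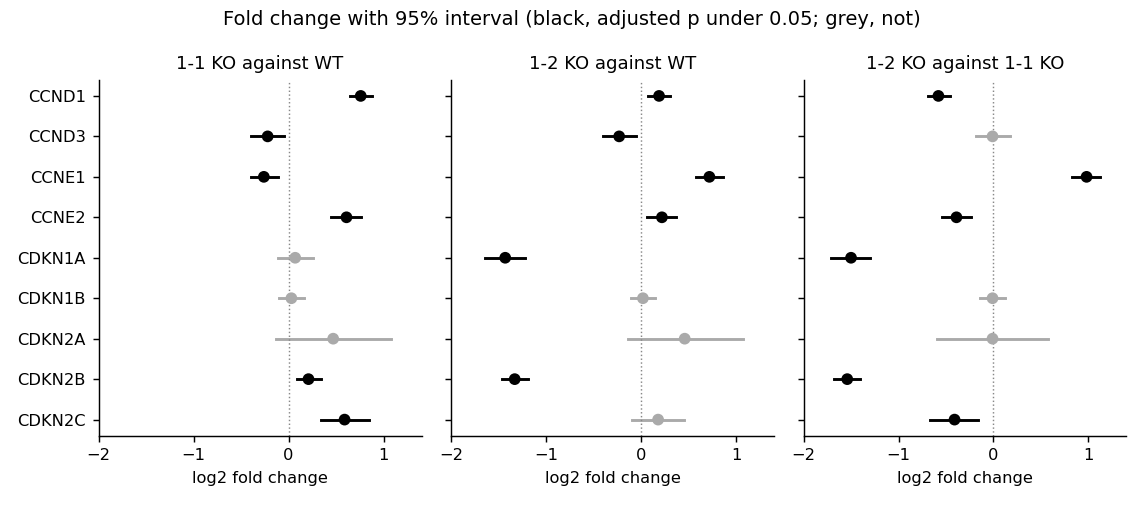
Log2 fold change of each of the 9 tested genes in the 3 comparisons, with the 95% interval of the fit. Black marks an adjusted p under 0.05 and grey a higher one. CDKN1A and CDKN2B lie between -1.33 and -1.54 in both comparisons of 1-2 KO and at 0.07 and 0.21 in 1-1 KO against WT, CCNE1 lies on opposite sides of 0 in the knockouts, and CDKN2A has the widest intervals.

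The promoters of the 3 genes with the widest range over the lines are shown because the data turn on their RNA level. They were taken from RefSeq on GRCh38.p14, where 7 of the 10 genes had an entry, and each is the 250 bases before the listed start, read 5′ to 3′ on the gene's strand. Capitals mark the GC box, GGGCGG or its reverse complement CCGCCC, the element that factors of the SP1 family bind, with overlapping matches counted. The CDKN1A window was chr6:36678464-36678713 on the plus strand and lies inside the gene as annotated here, which has further starts upstream. The CDKN2B window was chr9:22009306-22009555 on the minus strand, and that of CCNE1 was chr19:29811741-29811990 on the plus strand.
CDKN1A: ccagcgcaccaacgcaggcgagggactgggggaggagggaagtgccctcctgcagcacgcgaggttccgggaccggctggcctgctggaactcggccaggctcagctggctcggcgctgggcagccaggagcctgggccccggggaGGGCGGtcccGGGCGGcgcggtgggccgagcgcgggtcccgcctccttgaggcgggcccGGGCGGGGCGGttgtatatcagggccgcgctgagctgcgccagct
CDKN2B: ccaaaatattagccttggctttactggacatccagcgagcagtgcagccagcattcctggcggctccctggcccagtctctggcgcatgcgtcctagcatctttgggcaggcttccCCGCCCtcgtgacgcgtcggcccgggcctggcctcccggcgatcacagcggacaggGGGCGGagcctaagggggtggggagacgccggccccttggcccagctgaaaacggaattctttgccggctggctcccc
CCNE1: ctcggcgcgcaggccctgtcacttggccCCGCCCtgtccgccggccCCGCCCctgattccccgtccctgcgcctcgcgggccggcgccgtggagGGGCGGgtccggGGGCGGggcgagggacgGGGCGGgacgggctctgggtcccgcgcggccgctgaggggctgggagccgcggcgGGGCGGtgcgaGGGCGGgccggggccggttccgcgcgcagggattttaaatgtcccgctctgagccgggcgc

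The CDKN1A window held 4 GC boxes, the CDKN2B window 2 and the CCNE1 window 7. Of 35116 RefSeq promoter windows of the same length, 42.6% held at least 1 GC box, 24.3% at least 2, 7.63% at least 4 and 1.12% at least 7. The windows were rich in G and C, with 76.4%, 66.4% and 81.2%. None of the 3 held the exact strings TATAAA, TTTCCCGC, TTTGGCGC or TTTCGCGC on either strand. Of all windows 10.7%, 1.39%, 0.55% and 0.439% held them, in that order. The first is a form of the TATA box and the others are forms of the E2F site. Further forms of these sites, and bases outside the windows, were not searched. These letters are a description of the windows only, and binding was not measured.

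Compared per length, as CPM per kilobase of the union of exons, CCND1 led in every line. Its mean was 66.3 ± 4.84 (SD, n = 3) in WT, 112 ± 1.07 in 1-1 KO and 75.4 ± 5.05 in 1-2 KO. In WT it was followed by CCNE1 (10.9), CDKN1B (8.59) and CDKN2B (7.04), each above the next beyond the spread of its libraries. CDKN1A (3.44) overlapped CCNE2 (3.18), and CCND3 (2.35) overlapped CDKN2A (2.21), with CDKN2C (1.22) lowest among the 9. In 1-2 KO CDKN2B (2.8) stood below CCNE2 (3.71) and overlapped CDKN2A (3.01) through replicate 1 alone, without which CDKN2A averaged 2.09 and lay below CDKN2B (2.7). CDKN1A (1.27) was last and overlapped CDKN2C (1.38). The order depends on the length used. With the longest annotated transcript CDKN1B (18.3) stood above CCNE1 (13.7) in WT, and CDKN2A (8.15) overlapped CDKN2B (7.31).

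**Figure D3:**
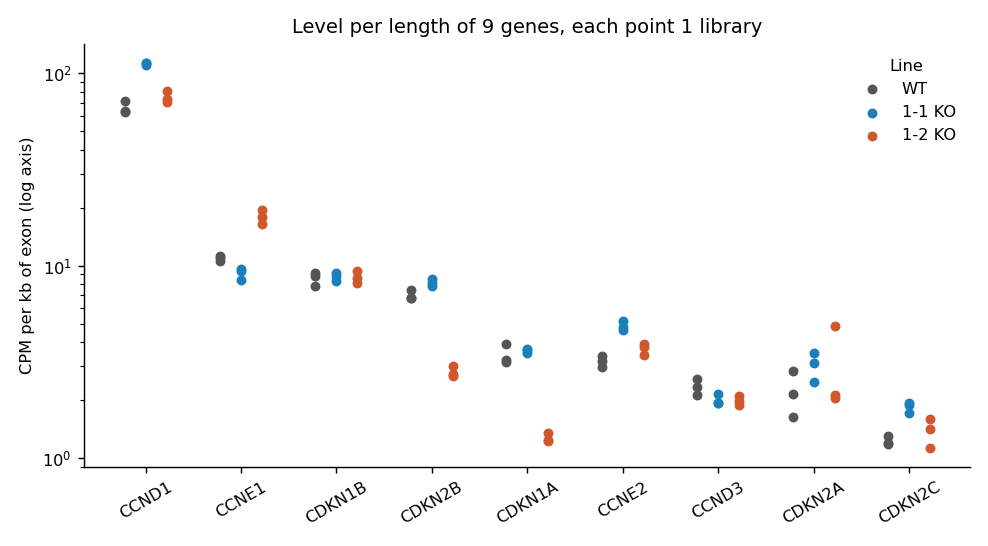
Level per length of the 9 tested genes, as CPM per kilobase of exon on a log axis, ordered by the WT mean. Each point is 1 library, in 3 columns per gene for the unedited line and the 1-1 and 1-2 knockouts. CCND1 lies several-fold above every other gene in each line, and in 1-2 KO CDKN1A drops to the range of CDKN2C and CDKN2B to 2.67 to 3.01, between the high CDKN2A library (4.84) and the other two.

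Summed over each family on this scale, the E-type cyclins came to 14.1 ± 0.438 (SD, n = 3) in WT, 14 ± 0.368 in 1-1 KO and 21.7 ± 1.74 in 1-2 KO. CCNE1 made up 76.7, 76.8 and 78.7% of this sum in the WT libraries, 66.1, 67.5 and 61.8% in 1-1 KO and 82.7, 82.5 and 83.3% in 1-2 KO. The sum in 1-1 KO was thus within the spread of WT while its makeup differed by -12.2 percentage points (exact two-sided permutation test, p = 0.1). With 3 libraries against 3 the smallest p this test can give is 0.1, so that it cannot pass 0.05 for any of the family shares. Of 12 such differences 11 gave this p, with an adjusted value of 0.109. In 1-2 KO the share was 5.46 points above WT (exact permutation p = 0.1). CCND1 held 96.6% of the D-type sum in WT, 98.2% in 1-1 KO and 97.4% in 1-2 KO.

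CDKN1A and CDKN1B together came to 12 ± 1.04 CPM per kilobase (SD, n = 3) in WT, 12.4 ± 0.315 in 1-1 KO and 9.98 ± 0.619 in 1-2 KO. CDKN1A supplied 28.7, 26.9 and 30.1% of this in WT, 29.1, 30.5 and 27.8% in 1-1 KO and 11.7, 13.6 and 13% in 1-2 KO, and the 1-2 KO libraries lay below all others. The 3 INK4 genes came to 10.5 ± 0.996 in WT, 13 ± 0.235 in 1-1 KO and 7.19 ± 1.95 in 1-2 KO, where the libraries gave 9.44, 6.22 and 5.91 and the mean without replicate 1 was 6.07. With the longest transcript, in which CDKN2A weighs more, the sums were 16.7 ± 2.58, 21.6 ± 1.62 and 15.4 ± 6.24, and 11.8 in 1-2 KO without replicate 1, so the size of the gap to WT depends on both choices. CDKN2C supplied 11.7% of the union-of-exons sum in WT, 14.1% in 1-1 KO and 19.6% in 1-2 KO, and its difference of 7.92 points between 1-2 KO and WT was 9.31 points without replicate 1. The difference in share of 1-2 KO from WT depended on the length used for the D-type, INK4 and CIP/KIP sums. With the longest transcript it became 1.66 points for the D-type sum and 2.21 points for the INK4 sum, from 0.828 and 7.92 points, each a change of more than 1.5-fold. For the CIP/KIP sum it was -15.8 points, -11.5 with the longest transcript and -6.93 with no length correction.

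In a cell line with altered chromosomes a gene can move together with its neighbours, so each gene was set beside the median log2 fold change of the 50 nearest tested genes. CDKN1A and CCND3 lie on chromosome 6, whose 952 tested genes had a median of -0.27 in 1-2 KO against WT, with 72.6% below 0, and a median of 0.00 in 1-1 KO. The neighbours of CCND3 had the same median of -0.27 in 1-2 KO, close to its own -0.23, and the flanking genes BYSL (-0.30, adjusted p = 3.34e-05) and TAF8 (-0.32, adjusted p = 3.71e-04) were lower too. With the neighbours' median subtracted, CCND3 differed from WT by 0.04 in 1-2 KO (adjusted p = 0.703). CDKN1A remained called in 1-2 KO with the neighbours subtracted, at -1.15, beside -0.24 for the flanking gene SRSF3. CPNE5, which flanks CDKN1A on the other side, was low (0.2 CPM in WT) and at -0.53 (adjusted p = 0.345).

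CDKN2B fell in 1-2 KO without a change of like size in the genes around it. Its 50 neighbours had a median of 0.01. MTAP was at -0.05 (adjusted p = 0.41), DMRTA1 at -0.18 (adjusted p = 0.0322) and CDKN2A, next to CDKN2B, at 0.46, or -0.06 without 1-2 KO replicate 1, with no call either way. The antisense transcript CDKN2B-AS1, which spans the gene on the opposite strand, was low (1.87 CPM in WT and 1.46 CPM in 1-2 KO) and differed by -0.35 (adjusted p = 0.0512). Its exons share no 50-base word with those of CDKN2B and 12.1% of the words of CDKN2A.

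CCND1 rose beyond its surroundings in 1-1 KO, and in 1-2 KO its difference from them was not called. In 1-1 KO the adjacent genes LTO1 (-0.01, adjusted p = 0.921) and FGF19, a growth factor gene often co-amplified with CCND1 (-0.01, adjusted p = 0.929), did not pass the test beside the rise of 0.76. In 1-2 KO LTO1 was 0.25 (adjusted p = 4.73e-04) and FGF19 0.58 (adjusted p = 1.06e-06) above WT, and CCND1 minus its neighbours' median was 0.09 (adjusted p = 0.168). LINC01488, the nearest tested gene on the other side of CCND1, was at -0.03 in 1-1 KO (adjusted p = 0.852) and 0.92 in 1-2 KO (adjusted p = 3.84e-05). For CCNE1 the neighbours' median in 1-2 KO was 0.16, with C19orf12 at 0.37 (adjusted p = 3.93e-04) and URI1 at 0.05 (adjusted p = 0.281), and the gene kept its call at 0.56. For CCNE2 the neighbours' median in 1-1 KO was 0.34, and CCNE2 minus the neighbours was 0.27 and still called. Of its adjacent genes DPY19L4 was at 0.48 (adjusted p = 4.01e-07) and NDUFAF6 at 0.31 (adjusted p = 0.00827) in 1-1 KO. The difference of CCNE2 between the knockouts was no longer called on this scale (-0.09, adjusted p = 0.303).

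CDKN2C in 1-2 KO lay above its neighbours, whose median was -0.27, with FAF1 at -0.46 and RNF11 at -0.74, both called. With the neighbours subtracted its difference from WT was 0.45 and called (adjusted p = 0.00784).

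CDKN1B was called only relative to its neighbours. Its neighbours had a median of 0.25 in 1-1 KO and -0.11 in 1-2 KO, and relative to them it was -0.22 in 1-1 KO against WT (adjusted p = 0.0067) and 0.35 in 1-2 KO against 1-1 KO (adjusted p = 1.62e-04). Copy number was not measured, and its part in these shifts was not tested.

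**Figure D4:**
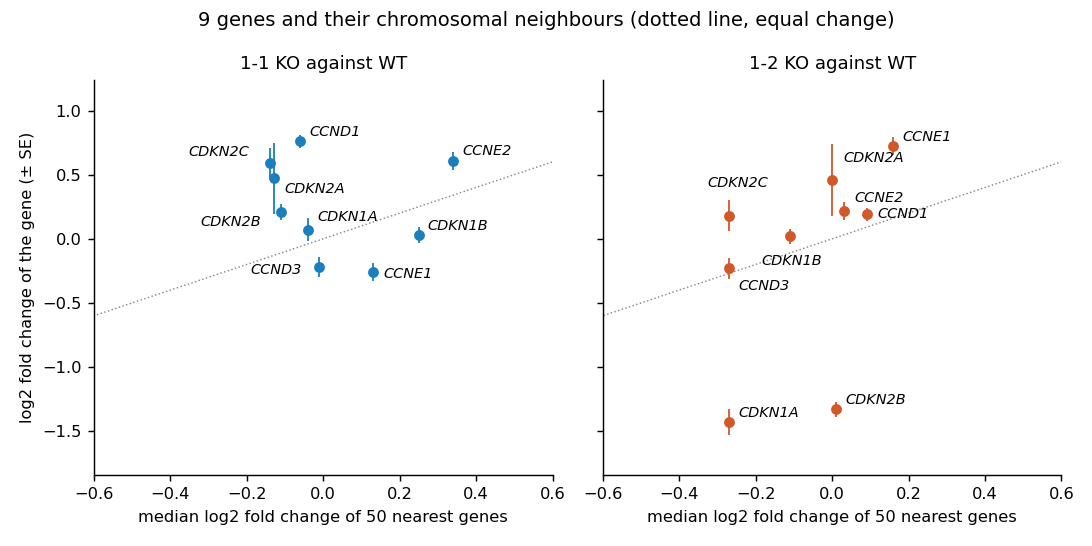
Log2 fold change of each of the 9 tested genes (± SE) against the median of its 50 nearest tested genes, for 1-1 KO and 1-2 KO against WT. The dotted line marks equal change. CCND3 lies on the line in 1-2 KO, CDKN1A and CDKN2B lie far below it there, and CCND1 lies far above it in 1-1 KO and near it in 1-2 KO.

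The partners of these proteins were read from a list of 31 further G1/S genes, of which 30 were tested. In 1-1 KO against WT 12 were higher, 10 lower and 8 not called, with a median log2 fold change of 0.01, the same as over all tested genes, and 73.3% called beside 63.4% of all genes. In 1-2 KO 11 were higher, 11 lower and 8 not called, with a median of 0.00 beside 0.02 over all genes, and 73.3% called beside 54.4%. The cyclin D kinases moved little in 1-2 KO, CDK4 by 0.17 (adjusted p = 4.81e-04) and CDK6 by 0.18 (adjusted p = 5.87e-04). In 1-1 KO CDK6 was lower by -0.57 (adjusted p = 6.94e-09), while CDK4 was at -0.07 (adjusted p = 0.0935). CDK2, the partner of cyclin E, was 0.22 higher in 1-1 KO and 0.20 higher in 1-2 KO (adjusted p = 3.04e-04 and 9.06e-04).

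The other inhibitors of both families were scarce. CDKN1C, the gene of the CIP/KIP protein p57, rose from 0.351 ± 0.0302 CPM (SD, n = 3) in WT to 1.88 ± 0.38 in 1-1 KO and 0.983 ± 0.0478 in 1-2 KO, log2 fold changes of 2.42 (SE 0.22, adjusted p = 2.38e-07) and 1.48 (SE 0.24, adjusted p = 1.09e-04). CDKN2D, the gene of the INK4 protein p19, was 0.60 higher in 1-1 KO (adjusted p = 7.07e-04) and at 0.28 in 1-2 KO (adjusted p = 0.0773).

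Among the targets and regulators, RB1, the gene of the retinoblastoma protein, was at 0.01 and 0.00 in the knockouts (adjusted p = 0.903 and 0.989). Its relative RBL1 (p107) was lower by -0.82 in 1-1 KO (adjusted p = 2.02e-09) and by -0.12 in 1-2 KO (adjusted p = 0.0332). SKP2, the ubiquitin ligase subunit that marks p27 for destruction, was 0.84 higher in 1-1 KO and 0.45 on the log2 scale lower in 1-2 KO (-0.45), both called, and its 50 neighbours on chromosome 5 had medians of 0.06 and -0.91. Its cofactor CKS1B was lower by -0.73 in 1-1 KO and -0.19 in 1-2 KO, close to the medians of its neighbours (-0.70 and -0.17). E2F2 was 0.60 higher in 1-1 KO and at -0.50 in 1-2 KO, and TFDP2, a partner of the E2F proteins, was at 0.86 and -0.30, all called. The medians of their neighbours were -0.18 and -0.26 for E2F2 and 0.46 and 0.04 for TFDP2.

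E2F targets and genes of ERK signalling were described by 2 further lists. The E2F targets are mostly genes of DNA synthesis, which cyclin and CDK activity switches on. The list also holds the regulators CCNA2, E2F1 and RBL1, which are among the partner genes too. Of the 21, all tested, 12 were higher, 7 lower and 2 not called in 1-1 KO, with a median of 0.20 beside 0.01 over all genes and 90.5% called beside 63.4%. In 1-2 KO 6 were higher, 5 lower and 10 not called, with a median of -0.01 beside 0.02 and 52.4% called beside 54.4%. Thymidine kinase, TK1, was 0.80 higher in 1-1 KO (adjusted p = 2.06e-10), while RBL1 was lower there by -0.82 (adjusted p = 2.02e-09). Thymidylate synthase, TYMS, was 0.49 higher in 1-1 KO and 0.28 higher in 1-2 KO (adjusted p = 4.39e-08 and 1.74e-05). In 1-2 KO the helicase subunit MCM3 was at -0.26 (adjusted p = 7.85e-05) and the polymerase clamp PCNA at -0.21 (adjusted p = 9.88e-05). Between the knockouts 6 were higher and 12 lower in 1-2 KO, 85.7% called beside 65.3%.

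The ERK output list holds genes that the ERK kinases, which also induce CCND1, switch on. Of its 16 genes 15 were tested. In 1-1 KO 7 were higher, 3 lower and 5 not called (median 0.02, 66.7% called beside 63.4% of all genes). The 3 smallest adjusted p were those of SPRY2 (1.00, adjusted p = 1.96e-09), DUSP4 (1.00, adjusted p = 8.42e-09) and DUSP5 (0.60, adjusted p = 1.40e-08), which encode feedback inhibitors of the pathway. The other DUSP, SPRY and SPRED genes of the list were mixed. SPRED2 was higher (0.33, adjusted p = 6.09e-06), SPRED1 was lower (-0.59, adjusted p = 5.15e-08), and DUSP6 (0.01) and SPRY4 (-0.03) were not called. In 1-2 KO 3 were higher, 7 lower and 5 not called (median -0.14, 66.7% called beside 54.4%), with DUSP6 at -0.80 (adjusted p = 3.03e-10), DUSP5 at -0.63 (adjusted p = 1.48e-08) and the receptor kinase EPHA2 at -0.61 (adjusted p = 4.93e-09). The 3 called higher were SPRY2 (0.18), ETV4 (0.15) and ETV5 (0.14). DUSP4 was lower (-0.44), while SPRED1 (0.00), SPRED2 (0.01) and SPRY4 (-0.14) were not called. Between the knockouts 2 were higher and 10 lower in 1-2 KO, with a median of -0.43 and 80% called beside 65.3%. CCND1 itself was called higher than WT in both knockouts, at 0.76 and 0.19. In 1-2 KO its libraries overlapped those of WT, and with the neighbours' median subtracted it was at 0.09 and no longer called (adjusted p = 0.168).

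For the 3 genes with the widest range, the genes nearest in pattern were sought among 13335 tested genes whose mean reached 1 CPM, by the Euclidean distance over 9 libraries of log2 CPM centred on the WT mean. Nearest to CDKN2B were GLRX, a glutaredoxin gene (distance 0.267), and MPZL2, a cell adhesion gene (0.297). GLRX differed from WT by 0.28 in 1-1 KO and -1.41 in 1-2 KO, and MPZL2 by 0.19 and -1.33. Nearest to CDKN1A was ALDH3B1, an aldehyde dehydrogenase gene (0.333), with 0.06 and -1.49, followed by CDKN2B itself (0.397), although the genes lie on chromosomes 6 and 9. Nearest to CCNE1 were ZCCHC2 (0.154), with -0.28 and 0.71, and NRSN2 (0.216), with -0.32 and 0.68. These are likenesses over 9 libraries of 3 lines and say nothing of a common control.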

How the data were processed

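Polyadenylated RNA of 9 Huh-7 samples was sequenced as stranded paired-end libraries, 3 per line. Reads were aligned by the authors with STAR (GRCh38, annotation version 104). Reads per gene were then tallied by featureCounts, and the raw counts were deposited without normalization. The strand setting, the treatment of multiply matching reads and whether reads or fragments were counted are not given in the sources used here. The study calls the libraries biological replicates without saying that they came from separate cultures, so p-values measure the spread between these libraries. Counts from same-line libraries varied by more than sampling noise.

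The counts were tested in R 4.3.3 with edgeR 4.0.16 (filterByExpr at its minimum count, 10, and minimum total, 15, TMM, all 9 libraries in 1 fit with a term per line, quasi-likelihood test, Benjamini-Hochberg over 17207 genes, threshold 0.05). DESeq2 1.42.0, which the authors used, was an alternative, and the steps were tested on simulated data. Per-length levels divide CPM by the union of exons in GENCODE 44 on GRCh38, which held 60463 of the 60664 identifiers. This annotation is newer than that of the counts. Words shared between transcripts had 50 bases. Tables and figures were made with scipy 1.17.1, matplotlib 3.10.9, pandas 2.3.3 and numpy 2.4.6 under Python 3.11.15. The other alternatives were 2 other scalings, 2 other filters, the compared lines alone, a replicate block, a threshold of 0.01, subtraction of the median of 50 neighbouring genes, and leaving out each library.

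Named genes are the 10 genes, the partner list, for each knockout the 3 genes of smallest adjusted p in the E2F target and ERK output lists, the genes that flank or overlap one of the 10, and the 2 nearest in pattern to the 3 genes with the widest range. The other DUSP, SPRY and SPRED genes of the ERK output list are named beside them. Some genes that the rule selects, and a further list, are not reported here. The genes and lists were chosen with earlier results of these data known.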

Additional observations from a re-analysis of the deposited data

How the results depend on the processing

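Over 378 refits of single genes, 338 kept their direction and their side of the threshold, 17 lost a call, 9 gained one and 18 changed sign, of which 4 are also among the calls lost or gained. The calls of CDKN1A and CDKN2B in 1-2 KO, of CCND1 and CCNE2 in 1-1 KO and of CCNE1 in all 3 comparisons held under every alternative run, with CDKN1A between -1.49 and -1.15 in 1-2 KO against WT. The count of called genes ranged from 5 to 7, 4 to 7 and 6 to 7 of 9 in the 3 comparisons. The changes of sign concerned CDKN1B, CDKN2A and CCND3. With the neighbours' median subtracted, CDKN1B was at -0.22 in 1-1 KO against WT and 0.35 in 1-2 KO against 1-1 KO, both now called, and CCND3 at 0.04 in 1-2 KO against WT, no longer called, and 0.26 in 1-2 KO against 1-1 KO, now called (adjusted p = 0.0143). CDKN2C in 1-2 KO against WT became called at 0.45. CDKN2A between the knockouts was 0.00 when scaled by library size alone. Leaving out 1 library at a time, CDKN1B lay between -0.03 and 0.08 in 1-1 KO, between -0.04 and 0.07 in 1-2 KO and between -0.07 and 0.04 between the knockouts, CDKN2A between -0.06 and 0.67 in 1-2 KO and between -0.54 and 0.20 between the knockouts, and CCND3 between -0.05 and 0.04 between the knockouts. CDKN2A was called against WT in both knockouts with no filter on low counts (adjusted p = 1.97e-06 and 4.01e-06), and in 1-1 KO with the compared lines alone (adjusted p = 0.0228), and the cause was not tested. Scaled by library size alone, both CCND3 calls against WT were lost at -0.17, and the median of all tested genes was 0.06 in 1-1 KO and 0.07 in 1-2 KO. Family shares depend on the length used by construction, and how far the differences between lines moved varied by family. In the order 1-1 KO against WT, 1-2 KO against WT and 1-2 KO against 1-1 KO, the CCND1 share differed by 1.99, 0.988 and -1 points with no length correction and by 3.36, 1.66 and -1.69 with the longest transcript. The CCNE1 share differed by -14.5, 7.3 and 21.8 points with no length correction. With the longest transcript it differed by -12.5, 5.62 and 18.1 points, close to -12.2, 5.46 and 17.7 with the union of exons. The CDKN1A share of 1-2 KO differed from WT and from 1-1 KO by -6.93 and -7.23 points with no length correction. With the longest transcript it differed by -11.5 and -12 points. In the order of comparisons above, the CDKN2C share differed by 1.22, 2.21 and 0.991 points with the longest transcript. With no length correction it differed by 1.96, 6.61 and 4.64 points. Deviations of libraries with the same replicate number were at most weakly correlated (between -0.187 and 0.047). Whether such libraries shared a culture or a batch is not given in the sources used here, and these correlations cannot settle it. A fit with the replicate block called the same number of genes, 6 of 9, in each comparison and changed no call.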
